A study of Mus musculus with 19 samples.

Results

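Osteoclast-like cells were selected by their transcripts from single cell libraries of the tenotomy site in a mouse model of heterotopic ossification, in which bone forms in soft tissue after injury. A cell was taken when it held at least 2 UMIs of Acp5, the gene of tartrate-resistant acid phosphatase, at least 2 of Ctsk, the collagen-degrading protease cathepsin K, and at least 1 of Atp6v0d2, a subunit of the vacuolar proton pump, had no UMI of the stromal gene Pdgfra, and had at most 0.5% of its UMIs from Col1a1. A UMI (unique molecular identifier) counts a captured transcript once, whatever the number of its PCR copies. In all, 268 of 39541 cells met the rule (0.678%), and these are called gated cells below. Since the rule used those 5 genes, their levels are given only as a description and were not tested. Osteoclasts are the bone-resorbing cells of the myeloid lineage. Their precursors, of the monocyte and macrophage line, respond to the growth factor CSF1 and to RANK ligand, induce the transcription factor NFATc1, fuse through the membrane proteins DC-STAMP and OC-STAMP, and then secrete acid and proteases onto the mineral. Macrophages, and stromal cells for Ctsk, express part of the same program.

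The mice received a burn over 30% of the body surface and an Achilles tenotomy, and cells of the injury site were sequenced in 19 libraries. Day 0, day 7 and day 21 had 4 libraries each and day 3 had 3, and a further 4 called p7N3 came from injured mice given a CD47-activating peptide at 10 mg/kg daily for 3 days before and 3 days after the injury. The labels list the burn for day 0 too, whereas the study describes day 0 as tissue without injury, and the harvest day of p7N3 replicate 4 is given by the study and not by its labels. The labels name C57 mice and LysmCre/Tgfb1fx/fx mice for the series as a whole, and no genotype is given for a library. In the latter strain Cre is driven by the lysozyme promoter of myeloid cells. Each library is 1 sample. The study describes its single cell replicates as a measure of variation between mice, but the labels tie no library to a mouse, so the p-values measure the spread between libraries. Total UMIs per library ranged from 3019467 to 5383855 on day 0, lower than in any other group. They ranged from 25243407 to 33704901 for day 3, 33235893 to 39870492 for day 7, 11064153 to 29233343 for day 21, and 25386054 to 35450868 in p7N3. Of the cells kept, 4.96% had a barcode sequence that also occurred in another library, as did 14 of the gated cells (5.22%), and no barcode was gated in more than 1 library.

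The 3 osteoclast genes of the rule and the 4 genes of fusion and resorption asked for in the gated cells are protein coding, and their positions are those of GRCm38. Acp5 is at chr9:22126727-22135711, Ctsk at chr3:95499256-95509362 and Atp6v0d2 at chr4:19876841-19922605. Mmp9 and Ocstamp are both on chromosome 2, at chr2:164940780-164955850 and chr2:165393760-165400405. Dcstamp is at chr15:39745930-39760938 and Calcr at chr6:3685680-3764714.

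Gated cells were present at every time after injury and were not seen at day 0. The 4 day 0 libraries held 0 gated cells of 3561, which allows a share of up to 0.0842% of cells. At day 3 the libraries held 27, 13 and 15 gated cells, or 0.956% ± 0.387 of cells (SD, n = 3). At day 7 they held 28, 17, 17 and 38 (0.776% ± 0.400, n = 4), and at day 21 they held 2, 1, 4 and 6 (0.243% ± 0.149, n = 4). With p7N3 they held 26, 28, 24 and 22 (0.884% ± 0.0785, n = 4). The limit for day 0 covers counting error only.

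In exact permutation tests over libraries, two-sided and adjusted over the 6 comparisons made, the share was higher than at day 0 at day 3, day 7 and day 21 (adjusted p = 0.0429 each, from a permutation p of 0.0286, the smallest that 4 libraries against 4 or 3 allow). Day 21 differed from day 7 by -0.534 percentage points (exact permutation, adjusted p = 0.0429), with no overlap between the libraries. Leaving out any 1 day 0 library took the adjusted p of all 3 comparisons with day 0 above 0.05 (exact permutation, 0.0857 to 0.150). So did leaving out any 1 day 3 library for day 3 (adjusted p = 0.1), any 1 day 21 library for day 21 (0.0571) and day 7 replicate 4 for day 7 (0.0571), all by exact permutation. Before adjustment the exact permutation p for day 3 was then 0.0667, the smallest that the remaining libraries allow. For day 21 and day 7 it stayed at 0.0286. Without any 1 day 0 library it was 0.1 for day 3, again the smallest possible, 0.0286 for day 7 and 0.0857 for day 21. The difference of day 21 from day 7 did not pass without day 7 replicate 4 or without any 1 of the 4 day 21 libraries (exact permutation, adjusted p = 0.0686 to 0.171). Day 7 differed from day 3 by -0.180 points (exact permutation, adjusted p = 0.617), and p7N3 from day 7 by 0.108 points (exact permutation, adjusted p = 0.629), and the libraries overlapped in both. A share was also taken of the myeloid cells of the same library, defined below. Its denominator included the gated cells outside the myeloid gate. That share was 1.98% at day 7 and 1.83% at day 21, a difference of -0.157 points that did not pass (exact permutation, adjusted p = 0.800). Depth bears on the count, since the rule needs at least 5 UMIs of 3 genes. Gated cells had a median of 17007 UMIs (3517 to 53714) and 3599.5 genes, against 6288 UMIs in other myeloid cells. Cells were then thinned to 3000 UMIs, which leaves out shallower cells, 1216 of 3561 at day 0, none at day 3, 316 of 13414 at day 7, 12 of 5345 at day 21 and 221 of 11426 with p7N3. Of the thinned cells 119 met the rule, none of them among the 2345 of day 0 (a share of up to 0.128%). In the thinned counts the mean share was 0.298% at day 3, 0.368% at day 7 and 0.0729% at day 21, and no difference from day 0 passed (exact permutation, adjusted p = 0.0571, 0.0571 and 0.214), nor did that of day 21 from day 7 (0.0571). Before adjustment the exact permutation p of day 3 and day 7 against day 0 stayed at 0.0286, the smallest possible. That of day 21 against day 7 did too, so these 3 calls were lost through the adjustment over the 6 comparisons.

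The rule selected cells of more than 1 kind. Myeloid cells were defined separately as cells in which 7 genes (Cd68, Csf1r, Fcer1g, Tyrobp, Lyz2, Ctss and Adgre1) made up at least 1% of the UMIs, with a UMI of Cd68, Csf1r or Adgre1, no Pdgfra and few neutrophil transcripts. Of the 268 gated cells, 106 passed that myeloid gate and 162 did not, each of the 162 because the 7 genes fell below 1%. The split was made after the data were seen, and the levels of the 2 kinds of gated cell are described without a test. Fits to the cells outside the myeloid gate, which stand beside some results below, are alternatives chosen after the data were seen. In the 162 the 7 genes had a median of 0.527% of UMIs, in the 106 a median of 3.16%, and in other myeloid cells 2.81%. The limit cuts a range, with 88 of the 162 between 0.5% and 1% and 26 of the 106 between 1% and 2%.

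**Figure D1:**
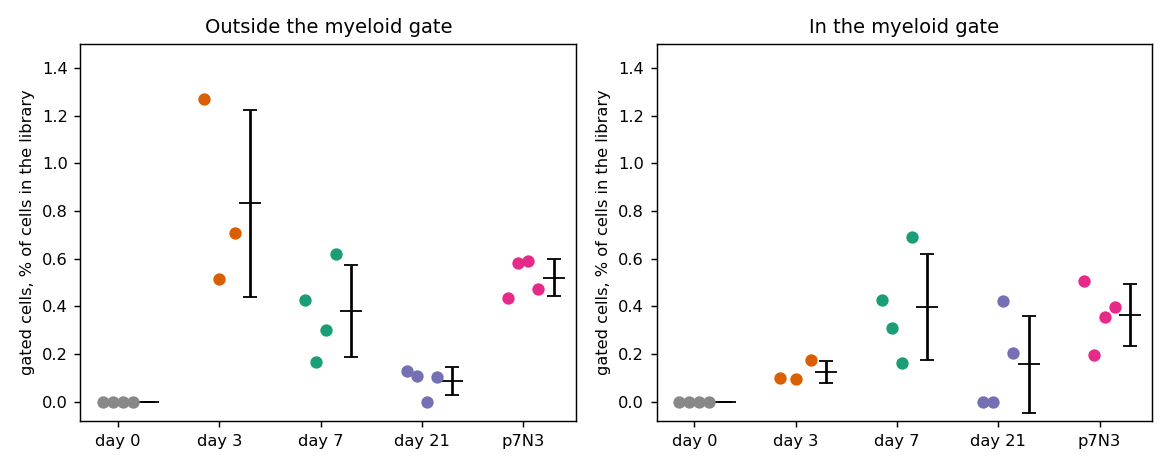
Gated cells as a percentage of the cells of each library, for the 162 gated cells outside the myeloid gate (left) and the 106 within it (right). Each point is a library and the bars are the mean and SD; at day 3 nearly all gated cells were outside the myeloid gate, and at day 0 there were none of either kind.

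The gated cells outside the myeloid gate had higher levels of osteoclast genes that neither gate used. Summed over the 10 libraries with at least 10 such cells, they had 344 ± 66.5 CPM of Nfatc1, the master transcription factor of osteoclast formation, 2949 ± 1926 of Mmp9, the gelatinase of osteoclasts and neutrophils, 129 ± 100 of Ocstamp, 89.7 ± 40.6 of Car2, the carbonic anhydrase that supplies protons, and 52.7 ± 42.3 of Itgb3, the beta chain of the osteoclast vitronectin receptor. CPM are UMIs of a gene per 1000000 UMIs of the summed cells, here without further scaling, and these 3' counts do not grow with transcript length. Gpnmb, a gene of lipid-laden macrophages, had 24.0 ± 17.9 CPM in them. Of the genes the rule used, Acp5 had a median of 50.5 UMIs and Ctsk of 36.0 in these cells, against 6 and 5 in the gated cells within the gate, given as a description only. Among the 10 libraries the means of these cells differed by day. At day 3 they were 279 CPM for Nfatc1, 800 for Mmp9, 21.7 for Ocstamp, 45.7 for Car2 and 3.31 for Itgb3. At day 7 they were 376, 3856, 183, 98.1 and 70.8.

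The gated cells within the myeloid gate looked different in their leading genes. Over the 5 libraries with at least 10 of them, all of day 7 or p7N3, they had 60.0 ± 27.9 CPM of Nfatc1, 274 ± 313 of Mmp9, 11.7 ± 14 of Ocstamp and 6.68 ± 10.6 of Car2. Much of this lay in cells near the limit, as 16 of the 69 cells, those with 1% to 2% of the 7 genes, held 49 of the 68 Nfatc1 UMIs and 285 of the 355 Mmp9 UMIs. Several genes of lipid-handling macrophages were high in them, with 2409 ± 986 CPM of Gpnmb, 18867 ± 11023.5 of Spp1 (osteopontin), 1244 ± 405 of Cd36, the fatty acid and oxidised lipid receptor, and 1903 ± 1298 of Mmp12, the macrophage elastase. Other myeloid cells had 199 ± 105 CPM of Gpnmb and 132 ± 91.3 of Mmp12. Apoe, which carries lipid out of macrophages, went the other way, with 9433 ± 2559 CPM in these gated cells, 22301 ± 8836 in other myeloid cells and 30143 ± 12258 in lipid-handling macrophages. As the levels of Nfatc1, Mmp9, Ocstamp, Car2 and Itgb3 differed this much within the set, the whole set is called by its rule.

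**Figure D2:**
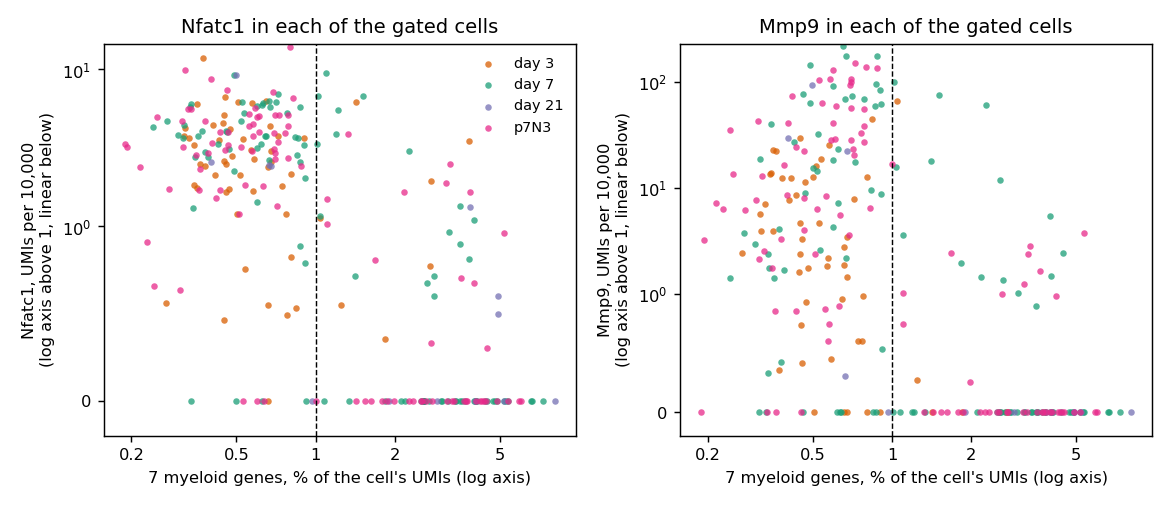
Each of the 268 gated cells by the percentage of its UMIs from the 7 myeloid genes (log axis) and its Nfatc1 (left) or Mmp9 (right) UMIs per 10000 (log axis above 1, linear below), coloured by group. The dashed line at 1% is the myeloid limit; for each gene, most cells to its right lie at 0.

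The proportion of the 2 kinds differed between days. Outside the myeloid gate were 48 of 55 gated cells at day 3, 49 of 100 at day 7, 5 of 13 at day 21 and 60 of 100 with p7N3. By library this was 92.6%, 84.6% and 80.0% at day 3, against 50.0%, 35.3%, 64.7% and 47.4% at day 7, and the libraries of these 2 days did not overlap. With p7N3 it was 46.2%, 75%, 62.5% and 54.5%, which overlapped day 7. As a share of all cells, gated cells outside the myeloid gate were 0.832% at day 3 and 0.379% at day 7, and those within it were 0.124% at day 3 and 0.397% at day 7.

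Mmp9, Ocstamp, Dcstamp and Calcr were not part of the rule. Among the 268 gated cells, 172 had a UMI of Mmp9, 93 of Ocstamp, 82 of Dcstamp and 1 of Calcr, the calcitonin receptor of mature osteoclasts. At least 1 of the 4 genes was seen in 189 cells (70.5%) and none in 79, of which 65 were within the myeloid gate and 14 outside it. Just 1 of the 4 was seen in 87 cells, 2 in 46, 3 in 55 and all 4 in 1 cell, a day 7 cell. By library, the cells with Mmp9 were 22, 11 and 12 at day 3, 16, 8, 9 and 23 at day 7, 2, 0, 0 and 2 at day 21, and 12, 24, 15 and 16 with p7N3. Those with Ocstamp were 8, 2 and 6 at day 3, 8, 9, 8 and 15 at day 7, 2, 0, 0 and 1 at day 21, and 10, 13, 5 and 6 with p7N3. In these counts Mmp9 was the most frequent of the 4 in each group but day 21, where Dcstamp was seen in as many cells.

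After thinning to 3000 UMIs, 50.4% ± 10.4 of gated cells held Mmp9 in 11 libraries with at least 10 gated cells (day 3, day 7 and p7N3), against 4.53% ± 3.37 of other myeloid cells (exact sign-flip permutation test, two-sided, adjusted over 4 genes, p = 0.00391, higher in 11 of 11 libraries). Ocstamp was held by 16.4% ± 9.29 against 1.16% ± 0.441 (exact permutation, adjusted p = 0.00391, higher in 10 of 11). Dcstamp was held by 10.7% ± 7.11 against 0.562% ± 0.351 (exact permutation, adjusted p = 0.00521, higher in 9 of 11). Unthinned shares were 66.4%, 35.1% and 30.6% in gated cells and 9.69%, 2.19% and 0.956% in other myeloid cells. As a measure of free RNA, Pdgfra-positive stromal cells, which lack these genes as a rule, gave 2.87%, 0.124% and 0.0309% at 3000 UMIs and 12.3%, 0.734% and 0.204% unthinned, at a median of 15660 UMIs. These stromal shares were pooled over all 19 libraries, whereas the others are means of 11. The mean share of other myeloid cells with Mmp9 was close to that background, though it ran from 0.493% to 12.7% by library. Their mean shares with Ocstamp and Dcstamp were above it, and gated cells were above it for the 3 genes. Calcr, with 1 UMI in all gated cells, could not be compared at this depth.

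Gated cells made up 0.864% of cells and 1.41% of UMIs in these 11 libraries, and yet 49.2% ± 19.9 of the Mmp9 UMIs, 42.7% ± 17.2 of those of Dcstamp and 34.9% ± 16.5 of those of Ocstamp lay in them. They held 12.9% ± 6.67 of the UMIs of Car2 and 11.1% ± 4.56 of those of Nfatc1, genes that other cells at the site also express. The rest of the UMIs of Ocstamp and Dcstamp lay in cells that missed the rule.

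At the limits of the rule, 19 gated cells had just 2 UMIs of Acp5, 44 had 2 of Ctsk and 39 had 1 of Atp6v0d2. Just outside, 33 cells missed only by having 1 UMI of Acp5, 85 by having 1 of Ctsk and 141 by having none of Atp6v0d2. The cells at 2 UMIs of Acp5 had 28.9 CPM of Nfatc1 and those at 1 had 34.1. The cells at 2 UMIs of Ctsk had 121 and those at 1 had 57.5. With 1 UMI of Atp6v0d2 the level of Nfatc1 was 175 CPM and with none it was 40.3. Mmp9 did not go the same way as Nfatc1 at these limits, with 108 CPM at 2 UMIs of Acp5 against 17.1 at 1, 161 at 2 UMIs of Ctsk against 177 at 1, and 209 at 1 UMI of Atp6v0d2 against 221 at none. A further 20 cells met all but the Pdgfra condition with a single UMI of that gene, and these had 206 CPM of Nfatc1 and 3353 of Mmp9.

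Markers of other cell types were summed in the gated cells of the 11 libraries. Of 4 osteoblast markers Bglap, Alpl and Sp7 had no UMI, and Ibsp had 2. Of 3 chondrocyte markers Col2a1 had none and the list summed to 0 to 9.21 CPM. Of 6 stromal markers, 5 were detected at a summed 762 to 1283 CPM, led by Col3a1, against 785 to 1429 CPM in other myeloid cells. T/NK, B, mast and Schwann cell lists had medians of 2.37, 4.33, 0 and 2.57 CPM. Some lists were raised in single libraries. The 4 endothelial markers had a median of 10.3 CPM and reached 90.0 in p7N3 replicate 3, against 9.48 to 29.4 in other myeloid cells. The 4 skeletal muscle markers, led by Acta1 and with no UMI of Pax7 or Myod1, had a median of 3.07 CPM and reached 156 in p7N3 replicate 4, against 0.425 to 145 in other myeloid cells. The 6 dendritic cell markers had a median of 4.74 CPM and reached 126 in day 7 replicate 3, against 39.6 to 111. The 5 granulocyte markers summed to 132 to 2307 CPM, led by S100a8, against 152 to 2625 CPM in other myeloid cells, and the 2 erythrocyte markers to 56.3 to 924 CPM, led by Hbb-bs. The part of free RNA or of doublets in these values was not tested, and 5 gated cells (1.87%) were among the 3.9% of cells with the highest Scrublet doublet scores.

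To see what else set gated cells apart, their UMIs were summed in each of the 11 libraries and compared with those of other myeloid cells of the same library in a paired quasi-likelihood fit (edgeR) that took each library as its own block. The genes of both gates were left out of the test. Of 9391 genes, 2541 were higher and 2601 lower in gated cells (54.8% called at an adjusted p of 0.05, 27.1% higher and 27.7% lower), with a median log2 fold change of -0.01. As most genes passed, a call alone does not set a gene apart, and sizes and lists are read against these shares. CPM in this comparison are scaled by edgeR's TMM factors.

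All 6 tested osteoclast markers that the rule did not use were higher, with a median log2 fold change of 4.32. Markers scarce in other myeloid cells, such as Car2, could meet the filter on low counts only through the gated cells. Their direction was thus largely fixed by the filter, and the count of 6 is a description. Itgb3, Oscar and Calcr of the same list did not pass the filter. This limit does not apply to Nfatc1, which was well detected in both kinds of cell. The transcription factor and signalling genes of the osteoclast pathway did not move as a block. Nfatc1 had 151 to 325 CPM in gated cells (median 248) and 20.6 to 27.0 in other myeloid cells (median 23.6), so the libraries did not overlap (log2 fold change 3.37, SE 0.101, adjusted p = 2.77e-20, edgeR). Src, the kinase needed for the ruffled border, had 44.0 to 112 CPM against 3.65 to 8.41 (3.72, SE 0.150, higher in 11 of 11 libraries). Tnfrsf11a, which encodes RANK, was higher by 1.12 and Mitf, a partner of NFATc1, by 1.29 on the log2 scale. In contrast Fos was lower, with a log2 fold change of -0.96, and so was Syk, the kinase that couples ITAM receptors, at -0.49. Against other myeloid cells at or above the lower quartile of UMIs of the gated cells, Syk was not called. Of 18 tested members of the RANK and ITAM list, 5 were higher, 8 lower and 5 not called, with a median log2 fold change of -0.22. Oscar, an osteoclast receptor that did not pass the filter on low counts, had 0 to 38.2 CPM in gated cells (median 24.6) and at most 0.0708 in other myeloid cells.

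Genes of repressors of osteoclast formation were lower. Of 6 tested, 5 fell (among them Id2) and Id1 did not pass, with a median of -1.20. Irf8, an interferon regulatory factor of the monocyte line, had 14 to 87 CPM in gated cells and 94.2 to 215 in other myeloid cells (log2 fold change -1.64, SE 0.130, adjusted p = 4.4e-11, edgeR), without overlap. Bcl6 fell by 1.19 on the log2 scale. In unscaled CPM, Irf8 had 15.2 ± 9.13 in gated cells outside the myeloid gate and 129 ± 54.4 in those within it. Other myeloid cells had 142 ± 34.7. Outside the gate the median of the list was -2.70. These values by kind of gated cell are a description only.

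The apparatus of acid secretion was higher. Of 21 genes, 16 were higher, 3 lower and 2 not called, with a median log2 fold change of 0.96. The largest change was that of Car2, at 24.4 to 110 CPM in gated cells and 0.592 to 1.68 in other myeloid cells (log2 fold change 5.64). As said above, the filter on low counts largely fixed its direction, so these values are a description. Slc4a2, the bicarbonate and chloride exchanger, was higher by 2.02, the pump subunits Atp6v1b2 and Atp6v1d by 1.71 and 1.42, Snx10, a sorting nexin needed for acid secretion, by 1.41, and Tcirg1, the pump subunit of the osteoclast membrane, by 1.02. The chloride transporter gene Clcn7 was higher by 0.71 in 8 of 11 libraries. Atp6v0a1, another isoform of the subunit that Tcirg1 encodes, was lower, at -1.01.

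Proteases changed in both directions. Mmp9 had 542 to 3267 CPM in gated cells (median 2407) and 3.25 to 67.1 in other myeloid cells (median 19.4), so the libraries did not overlap (log2 fold change 6.42, SE 0.628, adjusted p = 5.91e-06, edgeR). Mmp14, a membrane-bound metalloproteinase, was higher by 1.14. The lysosomal proteases Ctsc, Ctsh and Lgmn, of the antigen-processing compartment, were lower, at -2.98, -2.14 and -1.72, as was Ctsb, at -0.74. In all, 3 of 14 tested were higher, 6 lower and 5 not called, with a median of -0.30. The third that was higher was Mmp12 (1.85), which was at 0.51 and not called against the deepest other myeloid cells (adjusted p = 0.525, edgeR). In gated cells outside the myeloid gate alone Mmp12 was at -4.76 and the median of the 14 proteases was -2.45. These cells were split off for their low share of macrophage transcripts and the comparators had to hold at least 1% of them, so such values are given as a description only, here and in the lists that follow.

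**Figure D3:**
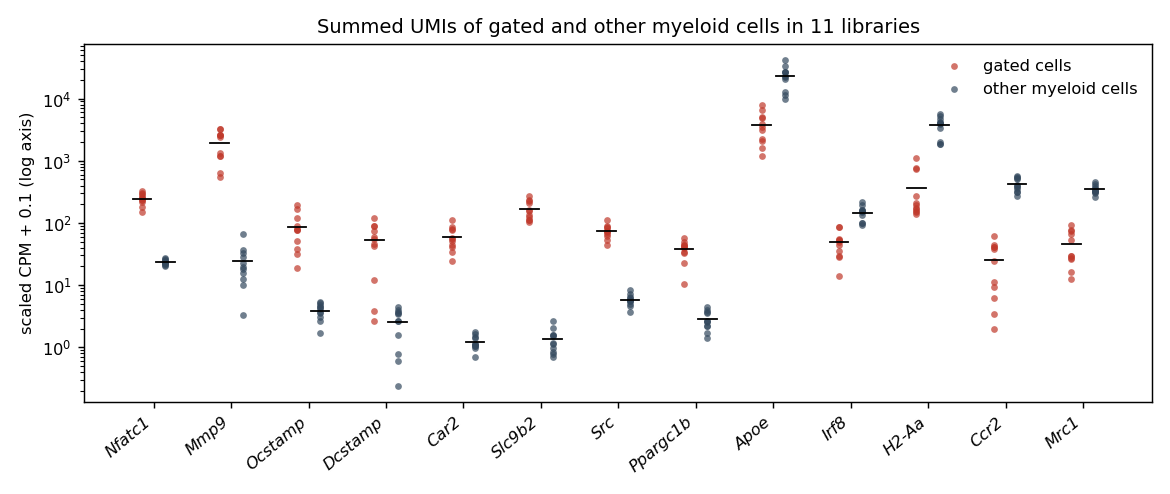
Scaled CPM plus 0.1 (log axis) of 13 genes in the summed gated cells and other myeloid cells of 11 libraries. Points are libraries and the black bars are means; Nfatc1, Mmp9, Car2, Slc9b2 and Src did not overlap between the 2 kinds of cell.

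Of the fusion genes, Dcstamp had 2.55 to 118 CPM against 0.143 to 4.31 (log2 fold change 4.35) and Ocstamp 19 to 191 against 1.60 to 5.21 (4.28). Both were scarce in other myeloid cells, so the filter on low counts largely fixed their direction and these values are a description. Myo10, an unconventional myosin of filopodia, was higher by 3.6 and the tetraspanin gene Cd9 by 1.18. Cd47 and its receptor Sirpa were lower, at -0.93 and -0.39, as was the tetraspanin gene Cd81, at -1.79. Of 12 tested, 6 were higher, 3 lower and 3 not called, with a median of 0.47. Outside the myeloid gate the median was 0.02 and Cd9 was at 0.05, and against the deepest other myeloid cells Cd9 was not called (0.74, adjusted p = 0.0509, edgeR). For attachment, Itgav, the alpha chain that pairs with Itgb3, was higher by 1.92, and Cttn, cortactin of the podosome belt, by 1.74, whereas Itgb5, an alternative beta chain, was lower, at -1.69. Of 9 attachment genes tested, 3 were higher, 2 lower and 4 not called, with a median of 0.13. Itgb3 did not pass the filter and had 0 to 84.5 CPM in gated cells and 0.613 to 2.54 in other myeloid cells.

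The genes of energy metabolism were higher. All 10 tested genes of mitochondrial respiration were higher in gated cells, with a median log2 fold change of 1.15. Atp5b, a subunit of ATP synthase, had 911 to 1550 CPM against 413 to 489 (1.45, SE 0.0796, adjusted p = 1.6e-14, edgeR), and Ppargc1b, a coactivator of mitochondrial biogenesis in osteoclasts, had 10.2 to 57.5 against 1.3 to 4.43 (3.76, SE 0.216). Cycs, cytochrome c, was higher by 1.66. Of 9 glycolysis genes, 7 were higher and 2 not called, with a median of 0.42, Aldoa by 0.90 and Ldha by 0.83.

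All 7 cell cycle genes were higher, with a median of 1.94. Top2a, a topoisomerase of dividing cells, had 3.18 to 183 CPM in gated cells against 5.35 to 16.5, higher in 9 of 11 libraries (log2 fold change 2.39, adjusted p = 0.000159, edgeR). The 2 kinds of gated cell differed here. In unscaled CPM, Top2a had 87.2 ± 68.4 in those outside the myeloid gate and 1.95 ± 2.69 in those within it. Other myeloid cells had 9.98 ± 3.63. Mki67 had means of 41.9, 0.891 and 7.77 in the same order, as a description. Against the deepest other myeloid cells, those at or above the lower quartile of UMIs of the gated cells, the log2 fold change of Top2a was 0.73 (adjusted p = 0.083, edgeR). Gated cells were deeper than other myeloid cells, and the part of depth or of doublets in the cell cycle genes was not tested further.

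Genes of inflammatory and resident macrophages were lower. All 7 inflammatory monocyte genes fell, with a median of -3.89, as did all 7 MHC class II genes (median -3.48), all 7 interferon genes (median -2.23) and 5 of 6 resident macrophage genes tested (median -2.98). Other myeloid cells had to hold at least 1% of the 7 myeloid genes, and most gated cells fell below that limit. The part of this requirement in the differences was not tested, and the counts are a description. Ccr2, the chemokine receptor of recruited monocytes, had 1.87 to 61.3 CPM in gated cells and 272 to 575 in other myeloid cells (log2 fold change -4.14, SE 0.317, adjusted p = 5.73e-07, edgeR). The cytokine gene Il1b was at -3.19, Mrc1, the mannose receptor, at -3.02, the chemokine gene Cxcl10 at -3.13, and H2-Aa, an MHC class II chain, at -3.63. Of 15 lipid-handling genes, 2 were higher (Gpnmb by 1.52 and Lpl by 1.79), 4 lower and 9 not called, with a median of 0.08. Apoe was at -2.69 and Trem2 at -0.52. In gated cells outside the myeloid gate alone, Gpnmb was at -3.00, Lpl at 0.38 and not called, and the median of the list at -2.20, as a description. Against the deepest other myeloid cells Gpnmb was at -0.23 and did not pass, nor did Lpl.

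**Figure D4:**
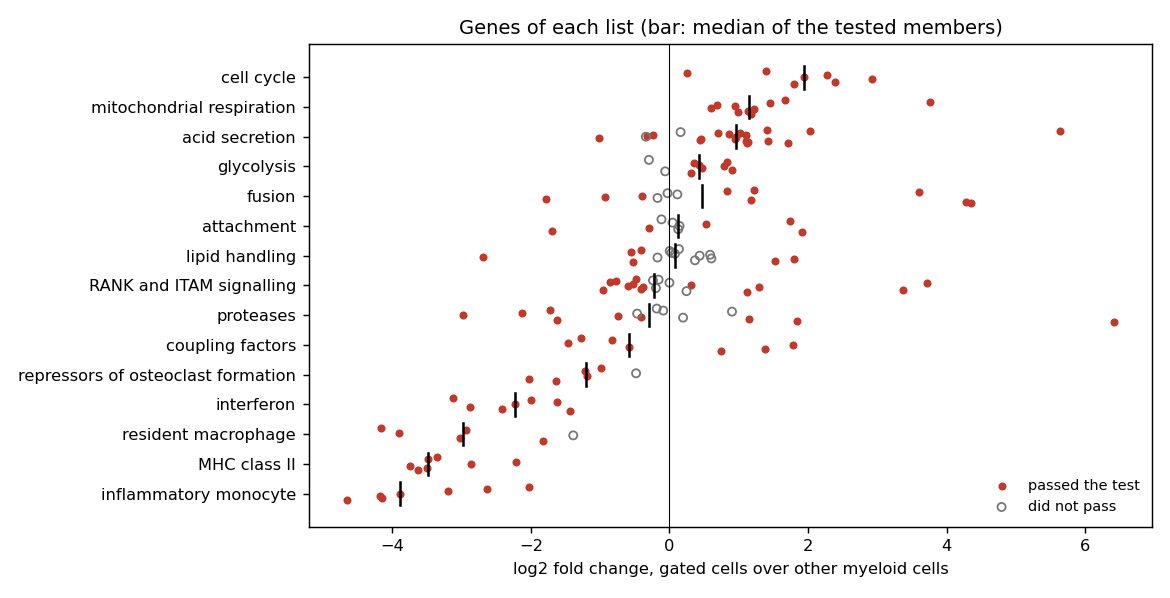
Log2 fold change of each tested gene of 15 lists, gated cells over other myeloid cells. Filled points passed the test at an adjusted p of 0.05, open points did not, and the bar is the median; cell cycle and mitochondrial respiration lie at the higher end (medians 1.94 and 1.15), and inflammatory monocyte and MHC class II genes at the lower end (medians -3.89 and -3.48).

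Factors by which osteoclasts signal to bone-forming cells went in both directions, with 3 of 7 tested higher and 4 lower. Pdgfb, which recruits mesenchymal cells, was higher by 1.78, Sphk1, the kinase that makes sphingosine 1-phosphate, by 1.38, and Sema4d, a semaphorin that restrains osteoblasts, by 0.74. Tgfb1 had 55.1 to 194 CPM in gated cells and 238 to 369 in other myeloid cells and was lower, at -1.47 (adjusted p = 1.13e-08, edgeR). Igf1 was lower, at -0.84, at an adjusted p of 0.0456 (edgeR), and that call was lost without any 1 of 8 of the 11 libraries (adjusted p = 0.063 to 0.0785). The labels do not tell which libraries, if any, came from mice with Tgfb1 deleted in myeloid cells.

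Beyond the lists, the genes with the largest increases among those past the threshold with the same direction in all 11 libraries were Slc9b2, Cyp2s1, Mmp9, Scin, Rufy4, Car2, Dusp9, Adck3, Chchd10 and Cd200. Slc9b2, a sodium and proton exchanger of the osteoclast, had 103 to 273 CPM against 0.589 to 2.60 (log2 fold change 7.09). Genes scarce in other myeloid cells, such as Slc9b2 and Car2, could meet the filter only through the gated cells. Their place among the largest increases is thus a description. Cyp2s1, a cytochrome P450, was higher by 6.60, Scin, the actin-severing adseverin, by 6.08, Chchd10, a mitochondrial protein gene, by 4.61, and Cd200 by 4.55. The largest decreases were those of Cd209f, Ccl8, Fcrls, Gm9733, Ccl12, Ly6c2, Hpgd, Gpr34, Ms4a4c and Ifitm6. Ccl8, a chemokine of resident-type macrophages, had 16.9 to 133 CPM in gated cells and 1135 to 5017 in other myeloid cells (-5.41, SE 0.434).

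A second comparison used 1851 lipid-handling macrophages, myeloid cells with at least 2 UMIs each of Gpnmb and Spp1 that missed the osteoclast rule. Of 5770 genes, 1784 were higher and 1609 lower in gated cells (58.8% called, 30.9% higher and 27.9% lower). Ocstamp had 19 to 189 CPM in gated cells and 0 to 1.84 in these macrophages. Slc9b2 was also higher. In these macrophages Ocstamp had 11 UMIs in all and Slc9b2 12, and each had none in 5 of 11 libraries. Both met the filter on low counts through the gated cells, which largely fixed their direction. Their levels are a description, and no exact fold or p-value is given for them. Nfatc1 was higher by 3.57, Src by 3.38, Kbtbd11 by 6 and Jdp2, a transcription factor that binds AP-1 sites, by 3.97. Acid secretion genes were higher in 15 of 20 and lower in 3 (median 0.64), and respiration genes higher in 9 of 9 (median 1.15). Lipid-handling genes were lower in 8 of 13 and higher in none, with Apoe at -3.14 and Fabp5, a fatty acid binding protein, at -1.56. The lysosomal protease Ctsd was lower, at -1.53. Among the 10 largest increases were also Cyp2s1, Mmp9, Car2, Adck3, Bdh2 and Chchd10, and the 10 largest decreases were those of Ccl8, Fcrls, Ccl12, Cbr2, Aoah, F13a1, Sepp1, Slc40a1, Gdf15 and Pf4.

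Within gated cells, day 7 was compared with day 3 over 11 libraries in a fit that also held the p7N3 libraries. Of 5249 genes, 381 were higher and 334 lower at day 7 (13.6% called, 7.26% higher and 6.36% lower). Without day 3 replicate 1, which held 27 of the 55 gated cells of that day, 109 were higher and 87 lower, without day 7 replicate 2 the number higher was 239, and without day 7 replicate 4 the number lower was 203. Of 11 fusion genes tested 3 were higher, 8 were not called and the median was 0.39, and of 9 attachment genes 1 was higher, 8 were not called and the median was 0.19. Dcstamp had 3.85, 2.71 and 12.4 scaled CPM in the day 3 libraries and 48.4, 92.9, 91.7 and 76.3 in those of day 7. Itgb3 had 8.99, 10.8 and 0 at day 3 and 46.3, 59.7, 43.9 and 52.5 at day 7. Over the day 3 libraries Dcstamp had 9 UMIs and Itgb3 had 11. Both could meet the filter on low counts only through the later groups. Their direction was thus largely fixed by the filter, and their values and place in the counts above are a description. Ocstamp had 19.3, 40.7 and 32.3 at day 3 and 84.2, 79.6, 175 and 126 at day 7 (log2 fold change 1.97, SE 0.490, adjusted p = 0.0219, edgeR). The 2 days did not overlap in any of the 3 genes. Ocstamp did not pass without day 3 replicate 1 or 3 or without day 7 replicate 4 (adjusted p = 0.0594 to 0.157, edgeR).

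Mmp9 lay at the threshold, with 649, 1272 and 552 scaled CPM at day 3 and 1264, 2690, 2712 and 3331 at day 7 (log2 fold change 1.61, SE 0.451, adjusted p = 0.0498, edgeR), and the 2 days overlapped narrowly. It did not pass without any 1 of 5 of the 7 libraries, namely day 3 replicates 1 and 3 and day 7 replicates 2, 3 and 4 (adjusted p = 0.0963 to 0.196, edgeR). Nfatc1 had 317, 168 and 313 unscaled CPM at day 3 and 283, 240, 248 and 217 at day 7, the days overlapped, and its change did not pass (adjusted p = 0.999, edgeR). Car2 had 36.8, 62.7 and 25.7 unscaled CPM at day 3 and 42.2, 49.1, 80.2 and 76.3 at day 7, and did not pass either. Of 8 tested osteoclast markers 4 were higher at day 7 and none lower (median 1.79). Dcstamp and Itgb3, whose direction was largely fixed by the filter, were among the 4. Of 4 tested repressors of osteoclast formation 2 were also higher and none lower (median 1.47), namely Irf8 by 1.51 and Id2 by 1.58 on the log2 scale. Of 18 RANK and ITAM genes 3 were higher and none lower (median -0.01), and of 14 proteases 6 were higher and none lower (median 1.26).

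Acid secretion genes were higher at day 7 in 14 of 20 tested and lower in none, with a median of 0.93 against -0.02 for all genes. Atp6v1d had 144, 201 and 201 scaled CPM at day 3 and 404, 335, 638 and 370 at day 7 (log2 fold change 1.27, SE 0.204, adjusted p = 0.000638, edgeR). Atp6v1g1 was higher by 1.27, Atp6v1a by 1.25, Clcn7 by 1.43 and Tcirg1 by 0.76. Without day 3 replicate 1, Clcn7 and Tcirg1 did not pass (adjusted p = 0.146 and 0.119, edgeR). Respiration genes were higher in 4 of 10 and lower in none, with a median of 0.43.

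Genes of the cell cycle were lower at day 7 in 5 of 7, with a median of -2.24. Top2a had 132, 51.5 and 186 scaled CPM at day 3 and 21.1, 3.32, 3.99 and 25.4 at day 7 (log2 fold change -2.92, SE 0.603, adjusted p = 0.0112, edgeR), and Mcm5, a replication helicase subunit, was lower, at -3.03. Lists of macrophage genes differed in their counts. Gpnmb was higher by 3.76 and Trem2 by 1.88, and 9 of 15 lipid-handling genes were higher and none lower. All 6 MHC class II genes tested were higher, H2-Aa by 2.03 and Cd74 by 1.85. Of 6 monocyte and macrophage markers 2 were higher and 4 not called (median 0.76), and of 2 resident macrophage genes tested none was called. Without day 3 replicate 1, Top2a, Gpnmb, H2-Aa and Cd74 did not pass (edgeR), nor did Gpnmb without any 1 of 4 other libraries (day 3 replicate 3 and day 7 replicates 2, 3 and 4) or Cd74 without day 3 replicate 2 or 3.

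The largest increases at day 7 without overlap were those of C1qtnf3, Itgax, Bhlhe41, Slamf7, Slamf8, Rnf128, Gpnmb, Dcstamp, Il7r and Serpind1. C1qtnf3 had no UMI in 1472812 UMIs of day 3 gated cells and 42 at day 7, and was at least 12.0-fold higher against a floor of 3 counts over the day 3 group. Itgax, which encodes CD11c, had 0, 0 and 2.49 scaled CPM at day 3 and 29.5, 82.9, 71.8 and 138 at day 7. C1qtnf3, Itgax and Dcstamp, scarce at day 3, could meet the filter on low counts only through the later groups, which largely fixed their direction. The largest decreases were those of Saa3, Retnlg, Wfdc21, Prg4, Chil3, Mcm5, S100a9, Cenpf, Top2a and Dusp2. Several of these are transcripts of neutrophils and of acute inflammation. Retnlg, with 2 UMIs at day 7, could meet the filter only through day 3. Saa3 rested on 1 library, with 1767 scaled CPM in day 3 replicate 3 against 42.4 and 29.8 in the other two.

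Granulocyte and erythrocyte transcripts moved with the day as well. In gated cells the 5 granulocyte markers summed to 1663, 1383 and 2307 CPM at day 3 and 190, 132, 137 and 531 at day 7, and over all cells of the libraries to a mean of 3961 and 233. The 2 erythrocyte markers summed to 307, 924 and 727 CPM at day 3 and 139, 138, 122 and 102 at day 7, and over all cells to 6955 and 1700. S100a9 had a log2 fold change of -3.03 at day 7, S100a8 of -2.31, Hbb-bs of -2.37 and Hba-a1 of -1.86. The part of free RNA in these differences was not tested.

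As day 3 had few gated cells within the myeloid gate, the comparison was repeated for gated cells outside it, an alternative chosen after the data were seen, with 3 libraries of day 3 and 3 of day 7. Of 4239 genes 208 were higher and 129 lower (7.95% called, 4.91% higher and 3.04% lower). Ocstamp (log2 fold change 3.09) and Mmp9 (2.34) were higher there, and so were Car2 (1.21) and Slc9b2 (1.27), each at an adjusted p under the threshold (edgeR). Dcstamp, Itgb3 and Oscar were also called higher. At day 3 these cells held 8 UMIs of Dcstamp, 7 of Itgb3 and 2 of Oscar, and 29 of Ocstamp. Dcstamp, Itgb3 and Oscar could meet the filter on low counts only through the later groups. Their direction was thus largely fixed by the filter, and no fold is given for them. Acid secretion genes were higher in 15 of 19 and respiration genes in 8 of 10. Of 13 proteases 2 were higher and 11 not called (median 0.27). None of 3 repressors of osteoclast formation was called, and their median was -0.64. Irf8 was not tested there and had 23.2 ± 8.26 unscaled CPM at day 3 and 15.8 ± 10.6 at day 7. Of 12 lipid-handling genes 3 were higher (Cd63 at 0.81, Lgals3 at 0.70 and Npc2 at 1.11), 9 were not called and the median was -0.01. Of 4 monocyte and macrophage markers Cd68, which the split used, was higher (1.32) and C1qa lower (-2.08). Gpnmb at 0.49, Trem2 at -0.03, Apoe at -0.98 and Ctss, which the split also used, at -0.05 did not pass. Over all gated cells they were at 3.76, 1.88, 1.82 and 2.02. None of the 6 MHC class II genes passed (median 1.13). Top2a was at -2.15 and did not pass (adjusted p = 0.0865, edgeR), and 2 of 7 cell cycle genes were lower. S100a9 was lower, at -4.08. Retnlg was also called lower, but with 1 UMI at day 7 in these cells it could meet the filter only through day 3.

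**Figure D5:**
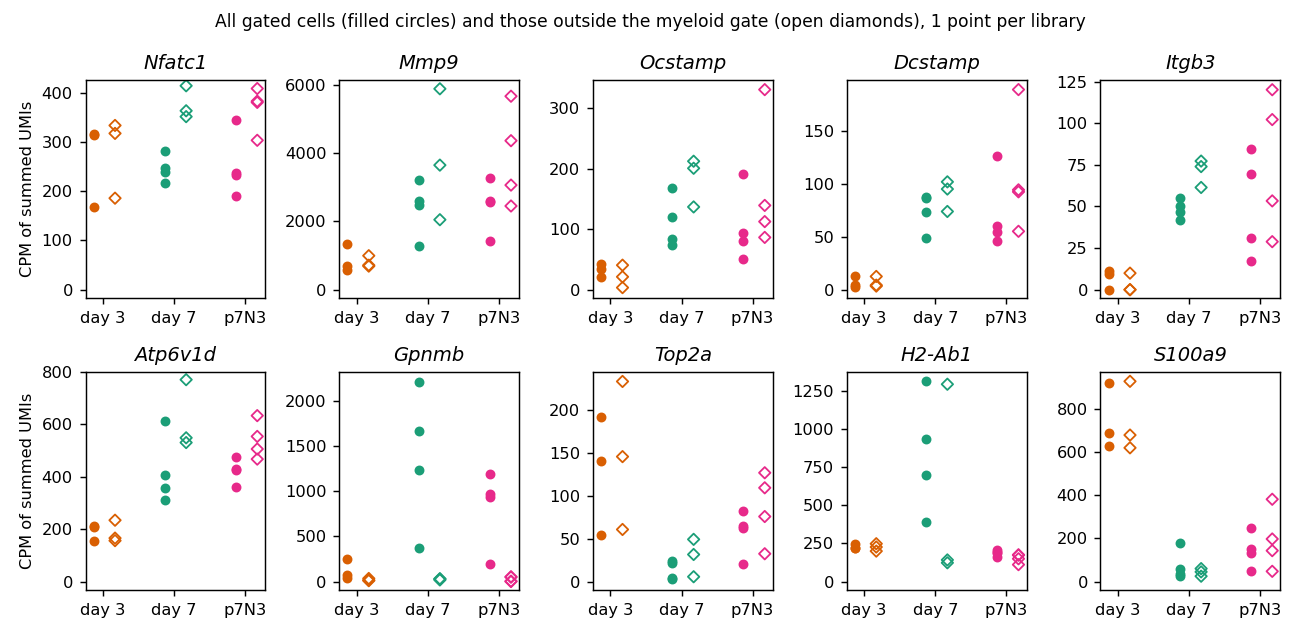
Unscaled CPM of 10 genes in the summed gated cells of day 3, day 7 and p7N3 libraries, for all gated cells (filled) and those outside the myeloid gate in libraries with at least 10 of them (open). Dcstamp and Itgb3 were higher in each day 7 library than in each day 3 library in both sets, Gpnmb only in the set of all gated cells, and H2-Ab1 was lower in each p7N3 library than in each day 7 library among all gated cells.

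The p7N3 libraries were compared with those of day 7 to ask whether the gated cells differed. The study set p7N3 against injured mice given PBS, and the titles of the day 7 libraries name no vehicle. Of 5249 genes none was higher and 1 was lower by edgeR's test (0.0191% called), DESeq2 called 1 higher and 10 lower, and 319 had an unadjusted p under 0.05. The gene was H2-Ab1, an MHC class II chain, with 935, 756, 1376 and 405 scaled CPM at day 7 and 191, 194, 189 and 167 with p7N3 (log2 fold change -2.21, SE 0.293, adjusted p = 0.0401, edgeR), without overlap. The other 5 MHC class II genes tested had an unadjusted p under 0.05 and did not pass after adjustment, with a list median of -2.02. In gated cells outside the myeloid gate alone H2-Ab1 was at -1.79 with an adjusted p of 0.98 (edgeR), and its adjusted p was above 0.05 without any 1 of 6 of the 8 libraries (0.0624 to 0.348). The 6 dendritic cell markers summed to 12.7, 6.14, 126 and 4.58 CPM in gated cells of day 7 and to 0, 0, 4.74 and 3.39 with p7N3, led by Cd209a, and their part in the difference was not tested.

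No gene of osteoclast function passed in this comparison. In unscaled CPM, Nfatc1 had 283, 240, 248 and 217 at day 7 and 233, 344, 190 and 238 with p7N3. Mmp9 had 1266, 2491, 2597 and 3199 at day 7 and 3277, 2554, 1426 and 2587 with p7N3, and Dcstamp 48.5, 86.0, 87.8 and 73.3 against 60.1, 45.5, 126 and 54.3. The groups overlapped for each of these genes, and the log2 fold changes were -0.04 (SE 0.197) for Nfatc1, -0.02 (SE 0.395) for Mmp9 and -0.09 (SE 0.314) for Dcstamp, so differences of the size of these errors could not be seen here. Of 8 osteoclast markers, 20 acid secretion genes and 11 fusion genes tested, none passed, and their median log2 fold changes were -0.03, -0.12 and -0.09.

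The 13 gated cells of day 21 were too few for sums, and day 21 was not compared with day 7 by gene. Of the 13, 4 had a UMI of Mmp9, 3 of Ocstamp, 4 of Dcstamp, 7 of Nfatc1 and 3 of Car2, and 9 had Gpnmb. 

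The factors that act on osteoclast precursors were measured over all cells of each library and give the setting of the gated cells. Tnfsf11, which encodes RANK ligand, had 0.630 ± 0.617 CPM at day 0, 13.3 ± 4.93 at day 3, 15.4 ± 1.33 at day 7, 5.84 ± 4.37 at day 21 and 23.0 ± 9.41 with p7N3. Tnfrsf11b, which encodes its decoy receptor osteoprotegerin, had 5.24 ± 2.05 CPM at day 0, 1.15 ± 0.972 at day 3, 4.25 ± 1.04 at day 7 and 13.9 ± 3.16 at day 21. Csf1 had 67.2 ± 5.84 CPM at day 0 and 34.6 ± 4.08 at day 3. These are descriptions of whole libraries, whose makeup differed between days, and were not tested.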

How the data were processed

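Single cell libraries (10x Genomics 3′, version 2) were made from digested tenotomy-site tissue. The deposited UMI counts per gene and barcode were made by the authors with Cell Ranger, and were used as deposited. The labels name a human build for replicates 1 to 3 although the gene identifiers are of mouse, and the methods give mm10. A barcode was kept if 500 or more genes were detected and no more than 25% of its UMIs were mitochondrial, the limits the study also used, doublets were not removed, and 1 sample was 1 library. The members, gene lists and tests were chosen with earlier results of these data known.

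UMIs were summed per library over at least 10 cells and tested with edgeR 4.0.16 (quasi-likelihood, robust, TMM factors, filterByExpr) in R 4.3.3, with Benjamini-Hochberg adjustment at 0.05. Shares were compared by exact permutation over libraries (scipy 1.17.1). Genes beyond the lists were named as the 10 largest changes in each direction among those past the threshold, at 20 CPM or more in either group, that kept their direction in every library or, between groups, did not overlap. DESeq2 1.42.0, other filters, scalings and gates, and each library left out were the alternatives. Steps were tested on simulated data. 1 list member is not reported here.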

Additional observations from a re-analysis of the deposited data

Results flagged for a closer look

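In 91 groups of 4 libraries of named genes, 7 had a library standing far from the rest. How many would do so by chance was not measured. The levels are unscaled CPM in gated cells. Day 7 replicate 4 was high in S100a8 (334 against 91.6 to 114) and Saa3 (6.10 against 0 in the others, from 4 UMIs) and low in Hba-a1 (27.5 against 38.2 to 40.1). Day 7 replicate 1 was high in Retnlg (4.22 against 0 in the others, from 2 UMIs), and day 7 replicate 3 in Serpind1 (115 against 30.7 to 42.7). With p7N3, replicate 3 was high in Chil3 (28.4 against 0 to 3.76) and replicate 2 was low in Hbb-bs (36.8 against 90.1 to 98.4). Most of these are transcripts of granulocytes, erythrocytes or inflammation, and their source was not tested.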

How the results depend on the processing

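Shares depended on the denominator and on the number of libraries. For the share of myeloid cells, the denominator included the gated cells outside the myeloid gate. The differences in percentage points of day 3, day 7 and day 21 from day 0 and of day 21 from day 7 no longer passed as a share of myeloid cells (1.44, 1.98, 1.83 and -0.157), in cells thinned to 3000 UMIs (0.298, 0.368, 0.0729 and -0.295), with at least 2 UMIs of Atp6v0d2 (0.867, 0.643, 0.230 and -0.414), within both gates (0.124, 0.397, 0.157 and -0.240), in replicates 1 to 3 (0.956, 0.599, 0.221 and -0.378), and outside the myeloid gate, an alternative chosen after the data were seen (0.832, 0.379, 0.0857 and -0.293). The same held with the replicate number as a block (0.956, 0.776, 0.243 and -0.534, exact permutation p of 0.125 to 0.25), a design too small to pass. The adjusted p of these alternatives ran from 0.0571 to 0.8 by exact permutation. Replicates 1 to 3 alone, at an exact permutation p of 0.1, were also too few to pass. Before adjustment the exact permutation p stayed at 0.0286, the smallest possible, in several others. This held for each difference from day 0 as a share of myeloid cells and with the Atp6v0d2 limit. For day 3 and day 7 against day 0 it also held when thinned, within both gates and outside the myeloid gate. For day 21 against day 7 it held when thinned and outside the myeloid gate. Day 7 minus day 3 turned positive as a share of myeloid cells (0.544), thinned (0.0698), within both gates (0.273) and without day 3 replicate 1 (0.0286), and p7N3 minus day 7 turned negative within both gates (-0.0342).

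With 1 library left out, the differences from day 0 spanned 0.748 to 1.13 (day 3), 0.599 to 0.881 (day 7) and 0.182 to 0.287 (day 21). Day 7 minus day 3 ran from -0.357 to 0.0286, day 21 minus day 7 from -0.638 to -0.356, and p7N3 minus day 7 from 0.00330 to 0.285. Shares of cells with Mmp9, Ocstamp and Dcstamp stayed higher by 44.0 to 47.1, 13.3 to 16.9 and 9.45 to 11.2 points, and that of Calcr at 0. Genes higher and lower than in other myeloid cells ran from 2344 to 2580 and 2445 to 2589, than in lipid-handling macrophages from 1549 to 1840 and 1534 to 1711, at day 7 against day 3 from 109 to 402 and 87 to 381, and with p7N3 from 0 to 3 and 0 to 6 (6 lower without day 7 replicate 4).

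Requiring 10 UMIs in every sum, which leaves fewer genes to test, gave 886 higher and 841 lower against other myeloid cells and 821 and 782 against lipid-handling macrophages, where no filter gave 2502 lower. Other myeloid cells at or above the lower quartile of UMIs of the gated cells gave 1314 and 1228. That fit tested 4940 genes, against 9391 in the main fit. For p7N3, DESeq2 gave 1 higher and 10 lower, no filter 15 and 20, replicates 1 to 3 gave 6 lower, the replicate block 3 lower, and at least 20 cells, a fit of both groups alone and cells outside the myeloid gate 0 lower. For day 7 against day 3, at least 20 cells gave 140 higher and 59 lower, replicates 1 to 3 gave 235 and 175, the replicate block 229 and 196, and cells outside the myeloid gate 208 and 129. The cause was not tested. For day 7 against day 3, the counts with at least 20 cells rest on replicate 1 alone for day 3. They are no like-for-like alternative and decide nothing. The replicate numbers did not pair the libraries, with correlations of -0.264 to 0.0477 between day 7 and p7N3 and -0.0804 to 0.182 between day 3 and day 7. Direction turned for Gpnmb (-0.23 with deep comparators, -3.00 outside the myeloid gate), Mmp12 (-4.76 outside it) and, for day 7 against day 3 outside it, Ctss (-0.0468), Trem2 (-0.0301) and Apoe (-0.98). Ctss was among the genes that the split used. Of 41 genes followed as called for day 7 against day 3, 22 lost the call without 1 library or another, 21 of them without day 3 replicate 1, while 16 were tested and kept it each time, among them Atp6v1d, Trem2 and Mcm5. Dcstamp and Itgb3 were also among the 16, with their direction largely fixed by the filter on low counts. The replicate block lost 9 calls. At least 20 cells per sum left day 3 with replicate 1 alone, so calls kept or lost in that fit decide nothing. Itgb3 and Ocstamp were among those lost in it. Under any alternative 33 of the 41 lost the call, some of them only in the fit with 1 day 3 library. Against other myeloid cells 13 of 79 lost the call under some alternative: Ccnb1, Cd9, Lpl, Mmp12, Syk, Top2a and Vcl with deep comparators, Clcn7, Ctsb, Gpnmb and Trem2 with at least 20 cells per sum, and Igf1 and Sphk1 under others. Against lipid-handling macrophages none of 29 did. Day 21 against day 7 by gene was not run, since its libraries held 1 to 6 gated cells.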
